A study of Homo sapiens with 62 samples.

Results

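The AGS 1q-loss clones are 5 cultures of a human gastric adenocarcinoma line from which an extra copy of the long arm of chromosome 1 (1q) had been removed. They were taken by their label, genotype 1q-loss in the AGS line, which covered 5 of the 62 RNA-seq libraries of the series, 1 library for each clone. The series made isogenic derivatives of several lines that lack a recurrent chromosome gain, by a set of techniques called ReDACT, and sequenced their RNA. Loss clones 1, 4, 6 and 7 were made by ReDACT-NS and loss clone 11 by ReDACT-CO, each targeting 1q. All 5 were derived from single cells. The 3 libraries that keep the gain were 1 of wildtype AGS cells and 1 each of TK+ integrant clones 1 and 2. Every AGS culture had been grown for 24 hours before RNA extraction, and none carried a further treatment by the labels. A clone is 1 library here, so its own values have no replicate, and nothing in the labels says whether clones came from separate parental cultures, so the p-values measure the spread between these libraries only.

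Gain of 1q is among the most frequent arm-level changes of epithelial tumours. The arm carries MDM4, whose product restrains the transcription factor p53, and genes of NOTCH processing, apoptosis and nucleotide salvage. Most genes are transcribed in proportion to their copy number, so that removing 1 of 3 copies lowers their RNA, while changes on other chromosomes need a further step. AGS cells keep parts of a stomach and gut programme, which GATA and FOXA transcription factors maintain in the normal tissue.

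The libraries held 15042068 to 19414614 counts over 58735 genes, of which 14988 passed the filter on low counts and were tested. Values per library are CPM, read counts divided by the TMM-scaled library size and put on a scale common to all libraries. Controls are given in the order wildtype, TK+ clone 1, TK+ clone 2, and loss clones in the order 1, 4, 6, 7, 11. In bulk RNA, fewer cells that express a gene and less RNA per cell cannot be told apart. The label of the line was checked against epithelial and gastric markers. Of 18 epithelial genes 16 passed the filter, EPCAM and KRT8 among them, while of 43 gastric and intestinal genes 22 passed and GKN1, GKN2, CDX1 and AGR3 had 0 counts in all 8 libraries. Of 14 immune markers 13 stayed under 10 counts in every library, as did 8 of 13 fibroblast and endothelial and 7 of 10 melanocyte markers.

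The lost arm was visible in all 5 clones. The median 1q gene, relative to the other autosomal genes and to the mean of the controls, stood at -0.56, -0.55, -0.56, -0.52 and -0.54 on the log2 scale in the loss clones, and at 0.0025, 0.019 and -0.017 in the controls. Thus every loss clone lay below every control, near the -0.585 that a step from 3 to 2 copies would give. The mean difference was -0.55 (SD 0.016, n = 5 loss clones), which is 68.4% of the control level (two-sided exact permutation test over the 8 libraries, p = 0.0357, the smallest value this design allows). By windows of 10 Mb the shift ran through the arm, with 1 exception. In the window nearest the centromere, with 58 tested genes, clone 11 stood at -0.047, while clones 1, 4, 6 and 7 stood at -0.72, -0.41, -0.53 and -0.44. Of the 659 tested 1q genes, 569 (86.3%) had a negative fold change, 274 (41.6%) lay within 0.2 of the 3 to 2 ratio, 76 (11.5%) lay between -0.2 and 0.2, and 87 (13.2%) were below -1.

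**Figure D1:**
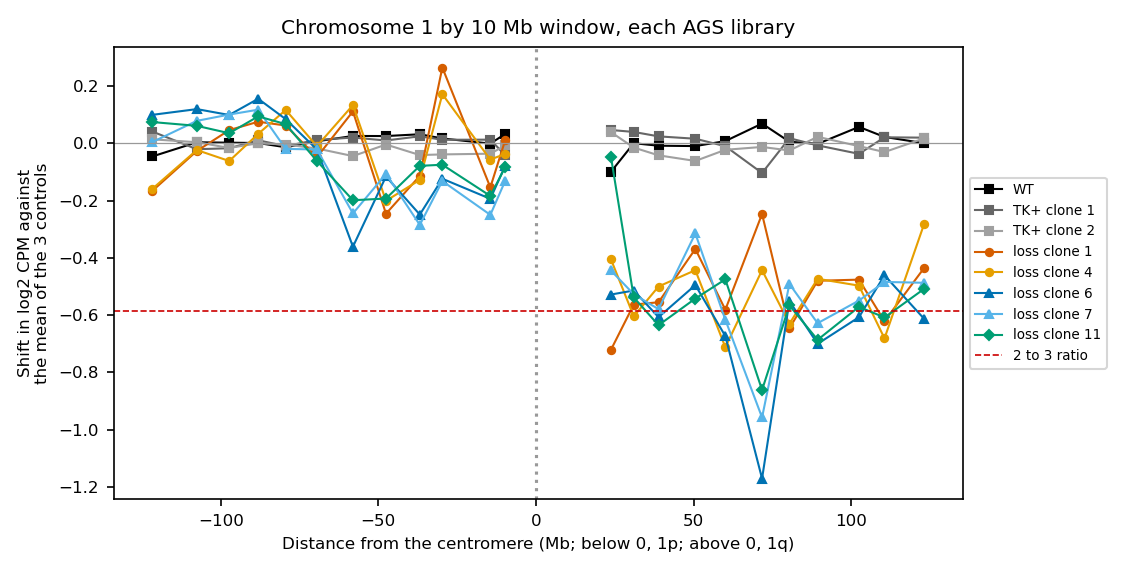
Median shift in log2 CPM of the tested genes in each 10 Mb window of chromosome 1 (vertical axis, against the mean of the 3 controls and the other autosomal genes) by distance of the window's median gene from the centromere in Mb (horizontal axis), 1 line per library. The 5 loss clones lie below the 3 controls over 1q, apart from clone 11 at -0.047 in the first window, and the window at 71.75 Mb holds 10 genes only.

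Of the 14988 genes, 1131 differed between loss clones and controls (edgeR quasi-likelihood test, adjusted p under 0.05), which is 7.55% of those tested. Of these, 506 (3.38%) were higher and 625 (4.17%) lower in the loss clones. On 1q 222 of 659 genes (33.7%) were called, 212 lower and 10 higher, and outside 1q 909 of 14329 (6.34%), 496 higher and 413 lower. Over all tested genes, the loss libraries lay wholly above or below the controls for 3051 (20.4%), 1465 (9.77%) above and 1586 (10.6%) below. Among the called genes this held for 1108 and the direction was the same in 5 of 5 clones for 1129, which the call on the same libraries largely fixes. The clones were not alike in size of change. For the 909 genes outside 1q the median change, counted in the direction of the call, was 1.08, 1.05, 0.94, 0.96 and 0.69 on the log2 scale in clones 1, 4, 6, 7 and 11. Clone 11 had the smallest change of the 5 for 498 of the 909 (54.8%).

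The clones also fell into sets. Among 10848 genes with a mean of at least 5 CPM, 25 differed by more than 2-fold between clones 6 and 7 and 237 between clones 1 and 4. The 3 pairs of controls differed in 113 to 301 genes, 235 of them between the 2 TK+ clones, so that clones 1 and 4 were about as alike as the controls. Clone 11 differed from clones 6 and 7 in 449 and 407 genes, from the wildtype library in 348, and from clones 1 and 4 in 710 and 861, and clones 1 and 4 differed from clones 6 and 7 in 897 to 1036. Clones 1 and 4 shared shifts of other arms as well, with 11q at 0.40 and 0.55 and 13q at -0.42 and -0.39. On 13q TK+ clone 1 stood at -0.32, while the wildtype library and TK+ clone 2 stood at 0.12 and 0.23. Clone 4 alone stood at -0.64 on 8p, and it was the highest library on 18p and 21q, at 0.295 and 0.265. Whether the clones of a set share an origin was not tested. With clones 1 and 4 summed and clones 6 and 7 summed, 138 genes were called, 46 of them on 1q.

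The number of calls was lower with a control left out than with any 1 loss clone left out. It was 167 without the wildtype library, 246 without TK+ clone 1 and 97 without TK+ clone 2, and 531 to 1773 with 1 loss clone left out, the highest without clone 11. The groups differ in size, with 3 controls and 5 loss clones, so these counts do not compare their weight. Called in all 8 of these fits were 79 genes, 34 on 1q and 45 outside it, of which 23 were higher and 22 lower. A tally was kept for 120 of the called genes named in these results. Of these, 74 were called in no fit with a control left out and 22 in all 3. The tally leaves out some genes named after their values were seen, such as PINCR, SFN, HPGD and SLFN5, which were called in all 8 fits.

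**Figure D2:**
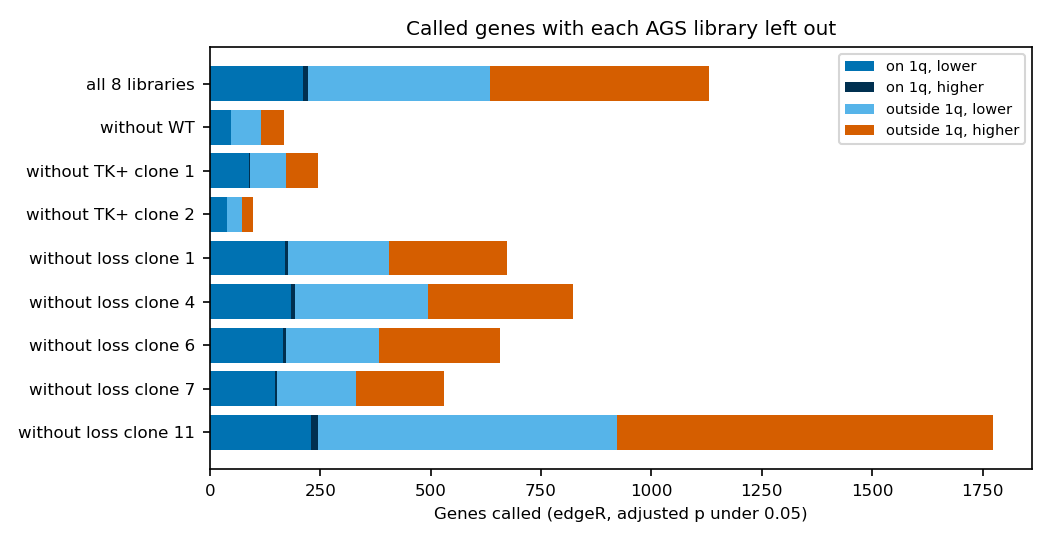
Number of genes called by edgeR (horizontal axis, adjusted p under 0.05) with all 8 AGS libraries and with each left out in turn (rows), split by position on or outside 1q and by direction in the loss clones. Leaving out a control gave 97 to 246 calls, and leaving out loss clone 11 gave 1773.

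Interferon-stimulated genes were lower in the loss clones. These genes are switched on by STAT and IRF transcription factors through a promoter element called ISRE, and encode antiviral proteins. Of 43 tested members 18 fell and none rose, where 4.17% of all tested genes fell and 3.38% rose, and the median log2 fold change was -1.14, beside 0.0059 over all tested genes. Of the 33 with a RefSeq promoter (GRCh38.p14, 250 bases before to 50 after the start, the first entry for a symbol), 22 (66.7%) held the letters GAAA, any 2 bases and GAAA again on either strand, against 996 of 27305 promoters (3.65%). The share was 8 of 13 (61.5%) among the called members and 14 of 20 (70.0%) among those not called. The stretches before the start of 3 called members are shown because they carry this element in 1, 2 or 3 copies, in capitals, 5′ to 3′ on the strand of the gene. They lie at chr1:78620198-78620447 on the plus strand, and at chr1:27672193-27672442 and chr3:146544608-146544857 on the minus strand, in the order given.
IFI44L: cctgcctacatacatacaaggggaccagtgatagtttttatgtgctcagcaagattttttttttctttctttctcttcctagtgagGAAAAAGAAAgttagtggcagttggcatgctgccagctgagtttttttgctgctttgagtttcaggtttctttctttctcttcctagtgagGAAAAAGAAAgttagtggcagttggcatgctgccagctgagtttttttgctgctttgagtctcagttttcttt
IFI6: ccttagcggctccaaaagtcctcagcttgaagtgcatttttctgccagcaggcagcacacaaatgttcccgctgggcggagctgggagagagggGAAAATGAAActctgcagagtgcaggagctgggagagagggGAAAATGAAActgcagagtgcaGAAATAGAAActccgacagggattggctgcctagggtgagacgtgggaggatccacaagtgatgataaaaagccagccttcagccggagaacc
PLSCR1: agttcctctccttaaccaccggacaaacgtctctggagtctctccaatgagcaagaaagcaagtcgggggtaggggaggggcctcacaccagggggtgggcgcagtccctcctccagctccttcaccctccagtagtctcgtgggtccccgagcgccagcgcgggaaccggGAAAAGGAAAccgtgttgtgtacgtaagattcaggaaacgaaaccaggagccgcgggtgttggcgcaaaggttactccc
A match is a description of these letters and not a measured binding site.

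PLSCR1, a phospholipid scramblase with antiviral activity, stood at 114, 186 and 189 CPM in the controls and at 60.6, 47, 60.0, 61.8 and 64.9 CPM in the loss clones (log2 fold change -1.47, SE 0.17, edgeR adjusted p = 0.0041). EIF2AK2, the kinase PKR that senses double-stranded RNA, stood at 138, 201 and 200.4 CPM and at 83.6, 59.9, 70.4, 73.2 and 86.9 CPM (log2 fold change -1.27, SE 0.16, edgeR adjusted p = 0.00529). Neither gene had a loss clone within the range of the controls, and both were called in all 8 fits that leave out 1 library. STAT2, a transcription factor of the interferon response, stood at 108, 166 and 178 CPM in the controls and at 82, 71.9, 92.6, 84.1 and 92.6 CPM in the loss clones (log2 fold change -0.83, SE 0.16, edgeR adjusted p = 0.0213). IFI44L stood at 11.7, 45.8 and 49.1 CPM and at 1.94, 0.172, 3.03, 4.17 and 3.65 CPM (log2 fold change -3.78, SE 0.67, edgeR adjusted p = 0.0169). IFI35, an interferon-induced protein, stood at 12.3, 54.5 and 25.6 CPM and at 5.39, 1.37, 6.06, 5.89 and 5.38 CPM (log2 fold change -2.67, SE 0.51, edgeR adjusted p = 0.0194). In both of these genes clone 4 was the lowest library and the wildtype control the lowest of the controls. IFI6, a mitochondrial antiviral protein, stood at 464, 1405 and 1041 CPM and at 301, 52.8, 316, 269.8 and 252 CPM (log2 fold change -2.03, SE 0.51, edgeR adjusted p = 0.0425), again with the wildtype library closest to the loss clones. DTX3L, an E3 ligase, and SP100, a nuclear body protein, fell with log2 fold changes of -1.29 and -1.14. Not all members followed. ISG15, a ubiquitin-like modifier, stood at 448, 818 and 780.2 CPM in the controls and at 337, 250.3, 706, 669 and 576 CPM in the loss clones (edgeR adjusted p = 0.478), so that clones 6, 7 and 11 overlapped the controls.

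The level of this group differed among the controls. Its median was -0.59 in the wildtype library, 0.32 in TK+ clone 1 and 0.29 in TK+ clone 2, and -1.29, -1.98, -0.80, -0.94 and -0.87 in the loss clones, so that every loss clone was below the wildtype library. With the wildtype library as the only control the median log2 fold change was -0.497, beside -1.14 with all 3 controls. The number called was 11 without the wildtype library, 3 without TK+ clone 1, 2 without TK+ clone 2, and 5 with clones 1 and 4 and clones 6 and 7 summed. Antigen presentation genes had a median of -0.75 over 19 tested, with PSMB9, a subunit of the immunoproteasome (log2 fold change -2.27), and ERAP1, which trims peptides (-0.87), called lower, or 10.5% of the 19 beside 4.17% of all tested genes. Neither was called in any fit with a control left out. IFI16 and ADAR, which interferon induces in many cells, lie on 1q itself. ADAR, an RNA editing enzyme, stood at 699.9, 776 and 849 CPM in the controls and at 396, 288, 308, 279 and 356 CPM in the loss clones (log2 fold change -1.25), a gene chosen after its values were seen.

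Gastric and intestinal genes were lower. Of 22 tested members 7 fell and none rose, where 4.17% of all tested genes fell, and the median was -0.997. PGC, the precursor of the stomach protease pepsin C, stood at 17.4, 30.4 and 6.49 CPM in the controls and at 0.182, 0.400, 0.178, 0.397 and 0.930 CPM in the loss clones (log2 fold change -5.43, SE 0.58, edgeR adjusted p = 0.00364). GATA5, a transcription factor of the gut lining, stood at 7.63, 8.48 and 5.01 CPM and at 1.15, 0.972, 1.07, 1.59 and 1.53 CPM (log2 fold change -2.48, SE 0.26, edgeR adjusted p = 0.00351). Its paralog GATA4 stood at 148, 99.7 and 136 CPM and at 34.6, 21.9, 35.2, 46.5 and 65.3 CPM (log2 fold change -1.65, SE 0.29, edgeR adjusted p = 0.0168). GATA4 lies on 8p, which stood at -0.64 in clone 4, its lowest library. A part of the arm in that value was not tested. All 5 loss clones lay below all 3 controls in each of these genes, and PGC and GATA5 were called in all 8 fits that leave out 1 library. FOXA1, which opens chromatin for other factors, stood at 66.3, 52 and 62 CPM and at 23.4, 28.5, 32, 29.4 and 42 CPM (log2 fold change -0.95, SE 0.18, edgeR adjusted p = 0.0187). REG4, a secreted lectin of gut cells, stood at 5.17, 78 and 8.14 CPM in the controls and at 0, 0, 1.37, 1.39 and 0.332 CPM in the loss clones (log2 fold change -5.62, SE 1.14, edgeR adjusted p = 0.0234), with TK+ clone 1 far above the other controls. TFF1, which protects the stomach's mucus layer, stood at 19.2, 28.6 and 18 CPM and at 0, 0, 3.98, 1.79 and 3.32 CPM (log2 fold change -3.60, SE 0.93, edgeR adjusted p = 0.0484), with 0 counts in clones 1 and 4, and LGALS4, a gut galectin, fell with a log2 fold change of -2.20. MUC1, CDH17, HNF4G, FOXA2 and FOXA3 were not called, though all 5 loss clones lay below all 3 controls. In the other 10 members the groups overlapped. KLF5 and VIL1, a gut transcription factor and a brush border protein, had log2 fold changes of -0.0091 and 0.30 (edgeR adjusted p = 0.981 and 0.472). By clone the group's median was -2.16, -2.62, -0.84, -0.91 and -0.97, lowest in clones 1 and 4. With a control left out 2 to 4 members were called, and 2 with the clone sets summed.

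**Figure D3:**
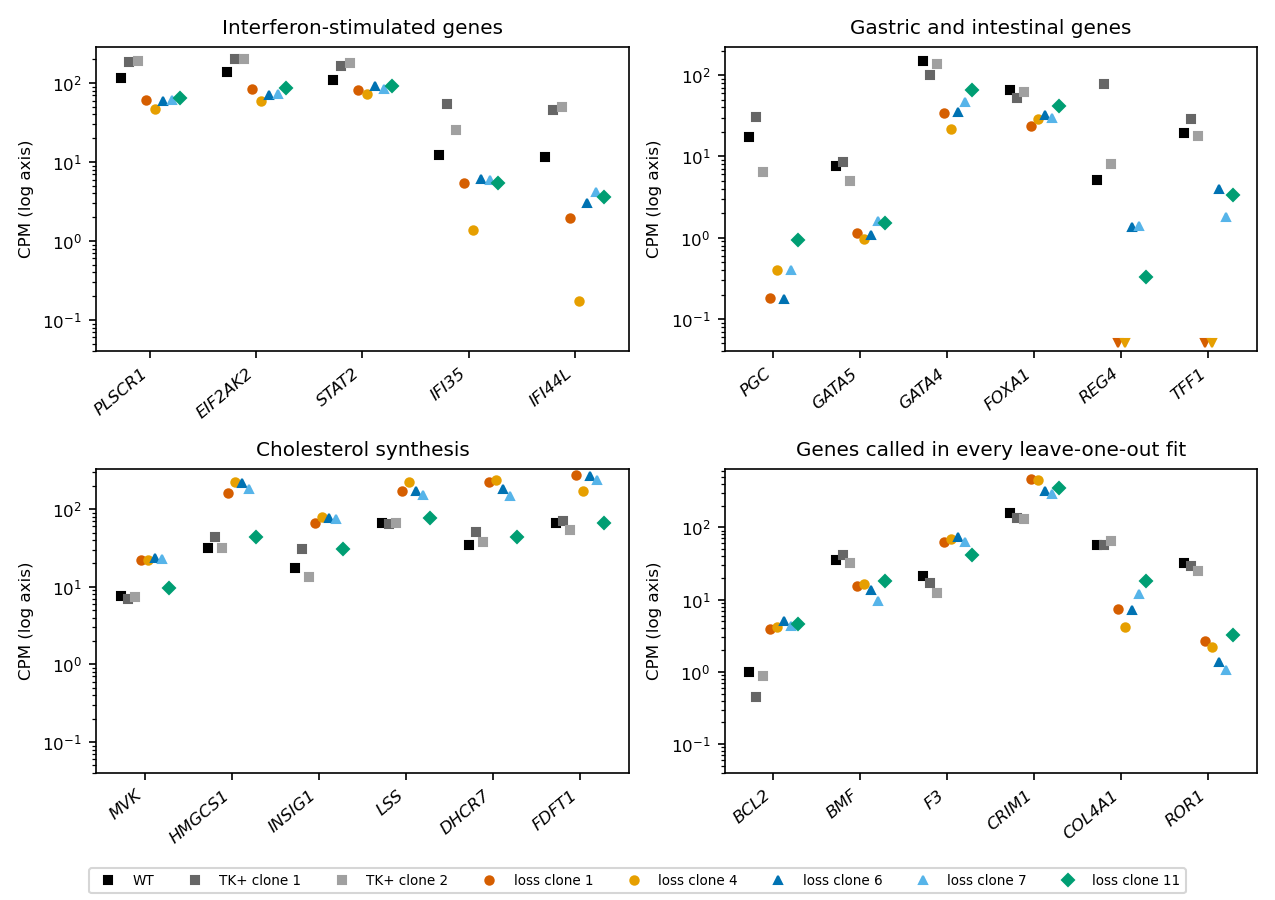
Read counts in CPM (vertical axes, log scale) of named genes (horizontal axes) in each of the 8 AGS libraries, squares for the controls and other symbols for the loss clones, in 4 panels. Points at the lower edge are 0 counts. Cholesterol synthesis genes in loss clone 11 lie near the controls, while the genes of the last panel separate all 5 loss clones from the 3 controls.

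Keratins, the intermediate filaments of epithelial cells, were higher. Of 15 tested 5 rose and none fell, where 3.38% of all tested genes rose, with a median of 0.79. KRT8 stood at 2563, 2816 and 2048 CPM in the controls and at 4716, 4974, 4311, 3939 and 3469 CPM in the loss clones (log2 fold change 0.79, SE 0.17, edgeR adjusted p = 0.0295). Its partner KRT18, whose locus overlaps KRT8, stood at 1223, 1505 and 1002 CPM and at 1863, 2290, 1931, 1783 and 1622 CPM (log2 fold change 0.61, edgeR adjusted p = 0.0606). Whether reads were counted by strand is not given in the sources used here, so reads of overlapping genes may be assigned to either. The same holds for EIF2AK2, STAT2, FOXA1, BCL2, COL4A1, ROR1, UPK2, MVK and other named genes whose span overlaps that of another gene. KRT19, KRT7, KRT23 and KRT6A rose with log2 fold changes of 0.81, 2.90, 4.24 and 2.55. KRT14 and KRT5, keratins of basal cells, belong to the list of basal breast markers and not to these 15. KRT14 stood at 1.36, 1.42 and 1.83 CPM and at 9.38, 13.6, 12.9, 10.5 and 2.46 CPM (log2 fold change 2.67, SE 0.51, edgeR adjusted p = 0.0198). KRT5, its partner, reached 15.7, 30.4, 0.594, 0.728 and 0.332 CPM against 0.157, 0.194 and 0.0590 CPM in the controls and was not called (edgeR adjusted p = 0.0862), with clones 1 and 4 far above the rest. Of 6 tested markers of basal breast epithelium KRT14 and KRT6A rose, and the median of the 6 was 1.96. It was 1.06 without clone 7, which left 5 tested, and none was called with any control left out, with limma-voom or with the clone sets summed. None of the 15 keratins was called once a control library was left out, and 1 was with the clone sets summed. Of the 16 epithelial genes, whose median was 0.11, KRT8, KRT19 and KRT7 rose as above, ST14, the membrane protease matriptase, also rose (0.65), and ELF3, an epithelial transcription factor on 1q, and ESRP1, a splicing regulator, fell (-1.06 and -0.84). With a control left out none of the 16 was called higher and 0 or 1 lower, and with the clone sets summed none was called.

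GZMB and PRF1, known from cytotoxic lymphocytes, rose. GZMB, a protease of their granules, stood at 0.0522, 0.259 and 0.118 CPM in the controls and at 14.9, 22, 12.8, 15.6 and 0.930 CPM in the loss clones (log2 fold change 6.52, SE 1.08, edgeR adjusted p = 0.014). PRF1, which forms the pore of cytotoxic granules, stood at 1.31, 6.34 and 3.48 CPM and at 48.6, 58.5, 113, 91.4 and 11.8 CPM (log2 fold change 4.14, SE 0.78, edgeR adjusted p = 0.019). In both clone 11 was the lowest loss clone. Neither was called when any control was left out, with limma-voom or with the clone sets summed. Of the other 10 granule genes none passed the filter, and T cell and NK cell markers such as CD3D, CD2, NKG7 and PTPRC stayed at no more than 3 counts. LYZ, the immune marker that was tested, encodes lysozyme, which gastric cells also make. It fell, from 474, 1950 and 83 CPM in the controls to 84.7, 31.2, 121, 81.8 and 20.9 CPM in the loss clones (log2 fold change -3.62, SE 0.85, edgeR adjusted p = 0.0361), with TK+ clone 2 inside the range of the loss clones. Without TK+ clone 1, the highest library, the log2 fold change was -2.04 and not called, and it was called in 2 of the 8 fits that leave out 1 library.

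Cholesterol synthesis genes were higher in 4 of the 5 clones. This pathway is driven by SREBP2, the product of SREBF2, when sterols are low. Of 33 tested genes 15 rose and 1 fell, where 3.38% of all tested genes rose and 4.17% fell, and the median was 0.91. By clone the median was 1.16, 1.30, 1.04, 0.96 and 0.077, so clone 11 stood at the level of the controls, which were at -0.012, 0.11 and -0.10. HMGCS1, which makes HMG-CoA, stood at 31.2, 44.4 and 31.9 CPM in the controls and at 161, 224, 217, 183 and 44.3 CPM in the loss clones (log2 fold change 2.21, SE 0.46, edgeR adjusted p = 0.0256). MVK, the mevalonate kinase, stood at 7.68, 6.86 and 7.38 CPM and at 22, 22.1, 23.4, 22.8 and 9.77 CPM (log2 fold change 1.45, SE 0.28, edgeR adjusted p = 0.0198). In both genes clones 1, 4, 6 and 7 were more than 2-fold above every control, while clone 11 was near the highest control. INSIG1, which retains SREBP in the endoplasmic reticulum, and LSS, DHCR7 and FDFT1 rose with log2 fold changes of 1.68, 1.27, 2.04 and 1.68. FDFT1 lies on 8p, which stood at -0.64 in clone 4. DHCR7, which makes cholesterol from its last precursor, stood at 34.3, 50.6 and 37.3 CPM in the controls and at 224, 239.8, 179.5, 149.8 and 43.5 CPM in the loss clones. It lies on 11q, which stood at 0.40, 0.55, 0.044, 0.041 and 0.026 in the loss clones. Whether the arm plays a part in the level of this gene was not tested. ELOVL6, which lengthens fatty acids, fell (-0.96). The fatty acid genes SCD and FASN had log2 fold changes of 0.13 and 0.63 (edgeR adjusted p = 0.779 and 0.0668), and SREBF2 itself 0.32 (adjusted p = 0.234). Without clone 11, 23 genes of the list rose, but 3, 4, 2 and 1 did without clone 1, 4, 6 and 7 in turn, and 4 with limma-voom. With a control left out 0 or 1 rose, and 0 with the clone sets summed. No cholesterol gene was called in all 8 fits that leave out 1 library. Of 25 tested members with a RefSeq promoter 1 held TCACNCCAC, a core of the sterol element, on either strand, beside 313 of 27305 promoters (1.15%). It was SREBF2, 1 of 14 not called, and 0 of 11 called members held it.

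Genes of apoptosis and of the p53 pathway moved singly. BCL2, which blocks apoptosis at mitochondria, stood at 0.993, 0.453 and 0.885 CPM in the controls and at 3.93, 4.12, 5.11, 4.37 and 4.59 CPM in the loss clones (log2 fold change 2.48, SE 0.29, edgeR adjusted p = 0.0041). BMF, which counters BCL2 proteins, stood at 35, 41 and 31.9 CPM and at 15.6, 16.6, 13.7, 9.47 and 18 CPM (log2 fold change -1.29, SE 0.20, edgeR adjusted p = 0.0106). Both genes separated all 5 loss clones from the controls and were called in all 8 fits that leave out 1 library. MCL1, a BCL2 relative on 1q, stood at 634, 634 and 648 CPM and at 418, 444, 417, 433 and 543 CPM (log2 fold change -0.50, SE 0.12, edgeR adjusted p = 0.0366), highest among the loss clones in clone 11. The other 11 tested members of the family were not called, so that 21.4% of the 14 were called beside 7.55% of all tested genes, and their median was 0.098. BCL2L1 and BAX had log2 fold changes of 0.16 and 0.18.

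Of 13 p53 target genes none was called, and their median log2 fold change was 0.099, which turned to -0.097 with the wildtype library as the only control and to -0.054 without TK+ clone 1. MDM4, on 1q, stood at 84.6, 98.7 and 101 CPM in the controls and at 42.7, 57.2, 55.5, 63.8 and 64.1 CPM in the loss clones (log2 fold change -0.74, SE 0.14, edgeR adjusted p = 0.0194). MDM2, the ligase that degrades p53 and is itself a p53 target, stood at 342, 246 and 307 CPM and at 408, 423, 393, 414 and 432 CPM (log2 fold change 0.47, SE 0.12, edgeR adjusted p = 0.0503), with every loss clone above every control. CDKN1A, the cell cycle inhibitor p21, stood at 977, 697 and 713 CPM and at 598, 545, 744, 746 and 719.9 CPM (log2 fold change -0.25, edgeR adjusted p = 0.377), and its groups overlapped. AEN and FDXR had log2 fold changes of 0.33 and 0.50, CCNG1 of 0.61, DDB2 of 0.16, XPC of 0.10, SESN1 of 0.019, RPS27L of -0.088, RRM2B of -0.19, ZMAT3 of -0.25 and TNFRSF10B of -0.32. At an unadjusted p under 0.05 4 of the 13 passed. DESeq2 called 4 of the 13 higher and limma-voom 1. Outside this list, 2 genes known as p53 targets were among those called in all 8 fits, chosen after their values were seen. PINCR, a long noncoding RNA, stood at 2.35, 0.647 and 1.65 CPM in the controls and at 31, 51.4, 18.1, 23.5 and 22.4 CPM in the loss clones, and SFN, the cell cycle regulator 14-3-3 sigma, at 144, 144 and 110.3 CPM and at 262, 314, 347, 304 and 249.8 CPM.

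Of 45 tested 1q genes with a known role in cancer or signalling, 15 fell and 2 rose, where 33.7% of all tested 1q genes were called, with a median of -0.47. With a control left out 2 to 6 were called lower and 0 higher. ATF6, a sensor of protein folding stress, stood at 167, 126 and 150.2 CPM in the controls and at 74.1, 72.6, 69.3, 71.9 and 76.9 CPM in the loss clones (log2 fold change -1.02, SE 0.11, edgeR adjusted p = 0.00351). PIK3C2B, a lipid kinase, stood at 147, 128 and 134 CPM and at 68.5, 54.4, 76.2, 72.1 and 79.2 CPM (log2 fold change -0.96, SE 0.13, edgeR adjusted p = 0.00677). These 2 were called in all 8 fits that leave out 1 library, and in both every loss clone lay below every control. UCK2, which activates uridine and cytidine analogs, stood at 80.4, 91 and 89.2 CPM and at 62.5, 63.5, 69.8, 63.9 and 57 CPM (log2 fold change -0.46, SE 0.10, edgeR adjusted p = 0.0271), and was called in 3 of the 8 fits. SETDB1, a histone methyltransferase, ARNT, the partner of hypoxia-inducible factors, SHC1, an adaptor of growth factor receptors, PROX1 and NR5A2, transcription factors of the gut, fell with log2 fold changes of -0.73, -0.71, -0.93, -1.22 and -2.08. Largest among all called 1q genes were the falls of IFI16, a DNA sensor (-3.41), F5, coagulation factor V (-2.80), KIF21B, a kinesin (-2.42), CD55, which shields cells from complement (-2.19), and NR5A2.

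Against the arm, 8 protein-coding 1q genes rose. ATF3, a stress-induced transcription factor, stood at 134, 129 and 128 CPM in the controls and at 226, 214, 194, 200.4 and 320.5 CPM in the loss clones (log2 fold change 0.83, SE 0.17, edgeR adjusted p = 0.0248), highest in clone 11. S100A4, a calcium-binding protein of motile cells, stood at 13, 16.6 and 13.8 CPM and at 127, 105, 76.9, 80.8 and 18.7 CPM (log2 fold change 2.50, SE 0.51, edgeR adjusted p = 0.0245), lowest of the loss clones in clone 11. DUSP10, a phosphatase of stress kinases, LGR6, an R-spondin receptor, NECTIN4, a cell adhesion protein, and TNNT2, a muscle troponin, rose with log2 fold changes of 1.18, 2.97, 1.19 and 2.57. KISS1, a secreted peptide, had 0 counts in the 3 controls and 2.24, 5.66, 0.653, 1.32 and 0.399 CPM in the loss clones, at least 11.7-fold higher in the mean (floor of 3 counts in each control library). For S100A6 and S100A11, the list's most abundant members, log2 fold changes of -0.39 and -0.19 were not called.

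Among signalling genes single members were called, to be read beside the 7.55% called over all tested genes. Among 20 tested WNT targets 4 fell and none rose, with a median of -0.071. LGR5, a stem cell receptor of the gut, stood at 142, 185 and 126 CPM in the controls and at 73, 39.3, 27.4, 27.5 and 54.9 CPM in the loss clones (log2 fold change -1.77, SE 0.31, edgeR adjusted p = 0.0165). EPHB2, which sorts cells along the crypt, stood at 47.1, 36.8 and 49.8 CPM and at 17.4, 19.2, 24.2, 20.8 and 23.7 CPM (log2 fold change -1.08, SE 0.15, edgeR adjusted p = 0.0076), and was called in 7 of the 8 fits that leave out 1 library. PROX1 and BAMBI (-0.58) made up the rest, and 0 to 2 of the 4 were called with a control left out, while CCND1 and AXIN2 had log2 fold changes of 0.35 and -0.43 (edgeR adjusted p = 0.221 and 0.121). Among 21 NOTCH and gamma-secretase genes 4 fell: the secretase subunits NCSTN (-0.51) and APH1A (-0.61), both on 1q, and the NOTCH targets HES1 (-0.40) and HEY1 (-1.35). None of the 4 was called when any control or loss clone 1 was left out, or with the clone sets summed. The median of the 21 was -0.13, and NOTCH1 and JAG1 had log2 fold changes of 0.21 and -0.14. Among 17 YAP targets F3, tissue factor, and CRIM1, a membrane protein that binds BMPs, rose, and the median was 0.45. F3 stood at 20.9, 16.8 and 12.2 CPM and at 61.9, 69.9, 72.9, 63 and 41.7 CPM (log2 fold change 1.89, SE 0.23, edgeR adjusted p = 0.00452). CRIM1 stood at 156, 133 and 129.9 CPM and at 459, 456, 315, 291 and 349.9 CPM (log2 fold change 1.42, SE 0.19, edgeR adjusted p = 0.00641). Both were called in all 8 fits. NRG1, a ligand of ERBB3 and ERBB4, stood at 0.0522, 0.0647 and 0.236 CPM and at 6.29, 14.2, 1.01, 2.58 and 0.532 CPM (log2 fold change 5.32, SE 1.33, edgeR adjusted p = 0.0425), and was the 1 called gene among 9 of the EGF family, whose median was 0.043. Among 14 FGF, MET and IGF genes, with a median of 0.24, IGFBP2 and IGFBP6, which bind insulin-like growth factors, rose (1.18 and 2.12). With a control left out NRG1 was not called and 0 or 1 of the IGFBP genes was. Of 19 MAPK feedback genes, with a median of -0.041, edgeR called none (4 at an unadjusted p under 0.05, 3 with DESeq2 and 1 with limma-voom).

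Of 25 laminin, integrin and basement membrane genes 4 fell, where 4.17% of all tested genes did, with a median of -0.36. COL4A1, a basement membrane collagen, stood at 57, 57.4 and 64 CPM in the controls and at 7.38, 4.23, 7.07, 12 and 17.9 CPM in the loss clones (log2 fold change -2.62, SE 0.37, edgeR adjusted p = 0.00766), and was called in all 8 fits. It lies on 13q. The integrins ITGA2, ITGA6 and ITGB1 fell with log2 fold changes of -0.91, -0.69 and -0.49, and were not called with any control left out or with the clone sets summed. Among 13 matrix proteases PLAT, which activates plasminogen, rose (3.25) and MMP1, a collagenase, fell (-3.44), and the median was -0.018. PLAT was not called with any control left out, and MMP1 was in 1 of the 3 such fits. S100A4 was the 1 called gene of 15 tested in mesenchymal transition, whose median was 0.58, and it was not called with any control left out.

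In the stress and metabolic lists with a called gene 2.63% to 15.8% of the tested members were called, beside 7.55% of all tested genes. With any control left out none of the ATF4, NRF2 and proteasome genes was called, 0 or 1 of the hypoxia and glycolysis genes and 1 or 2 of the unfolded protein response. Of 21 genes of the unfolded protein response 3 fell, namely ATF6, DNAJB9, a chaperone partner (-0.97), and SEL1L, which serves protein disposal (-0.82). Of 24 ATF4 targets ASNS, asparagine synthetase, and CTH, a cysteine enzyme, fell (-1.25 and -1.17) and ATF3 rose. Of 31 hypoxia and glycolysis genes 3 rose: the glucose transporter SLC2A3 (1.84), the hexokinase HK1 (1.19) and the enolase ENO1 (0.82). SLC2A3 stood at 295, 348 and 265 CPM in the controls and at 1654, 1585, 807, 799 and 579 CPM in the loss clones, highest in clones 1 and 4. Of 19 NRF2 targets TALDO1, TKT and TXNRD1 rose (0.77, 0.83 and 0.45), the first pair from the pentose phosphate pathway. Of 31 proteasome subunits 4 rose (PSMD6, PSMD3, PSMC4 and PSMD7, 0.53, 0.45, 0.56 and 0.39), the median was 0.34, and 15 had all loss clones above the controls, a share to be read beside the 9.77% of all tested genes. Of 18 heat shock genes HSPB1 rose (0.74), of 21 inflammatory genes NFKBIA rose (0.59), and of 38 complex I subunits 1 fell. Of 21 nucleoside genes UCK2 and SAMHD1, a dNTPase, fell (-1.01). Of 10 imprinted genes H19 rose (3.23), of 13 HOX genes HOXB7 rose and HOXB5 fell (1.26 and -0.85). HSPB1, NFKBIA, H19, HOXB7 and HOXB5 were not called with any control left out, and SAMHD1 was in 1 of the 3 such fits. The medians were -0.25 for the unfolded protein response and -0.25 for ATF4 targets, 0.18 for hypoxia and glycolysis, 0.19 for NRF2, -0.055 for heat shock, 0.39 for inflammatory, 0.083 for complex I, 0.046 for nucleoside, 0.097 for imprinted and -0.13 for HOX genes. By edgeR none was called of 13 death receptor (median -0.18), 5 metallothionein (0.12), 3 fibroblast and endothelial (0.91), 3 melanocyte (0.22) and 1 cancer-testis gene (-1.50) that passed the filter. With a control left out 2 cancer-testis genes passed, with medians of 2.18 without the wildtype library, 2.72 without TK+ clone 1 and 2.23 without TK+ clone 2, and 1 was called higher in the first and second of these fits. At an unadjusted p under 0.05 these lists had 3, 3, 2, 1 and 1 gene, DESeq2 called 1, 3, 1, 0 and 0, and limma-voom 0, 0, 1, 0 and 0.

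The level of mitosis genes varied among the clones. By edgeR none of 36 replication and 33 mitosis genes was called, with medians of 0.37 and 0.32, while 10 and 2 passed an unadjusted p of 0.05. DESeq2 called 5 and 0, and limma-voom 0 and 0. The medians of the mitosis genes were 0.93 and 1.02 in clones 1 and 4, and -0.12, -0.22 and -0.38 in clones 6, 7 and 11, with controls at -0.14, 0.23 and -0.11. TOP2A, the topoisomerase of dividing cells, stood at 231, 212 and 213 CPM in the controls and at 415, 385, 164, 176 and 179.8 CPM in the loss clones. CDKN1B, the inhibitor p27, fell (-0.58), the 1 called gene of 6 CDK inhibitors, or 16.7% beside 7.55% of all tested genes, with a median of -0.15. It was not called with any control left out.

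With 1 of the 8 libraries left out, the median moved by over 1.5 times or changed sign in 26 of the 40 lists, and it changed sign in 10. It ranged from -0.39 without TK+ clone 2 to -0.12 without TK+ clone 1 for the unfolded protein response, and from -0.40 without clone 11 to -0.18 without clone 7 for ATF4 targets. For NRF2 targets it ranged from 0.11 without clone 6 to 0.48 without the wildtype library, and for inflammatory genes from 0.23 without clone 6 to 0.47 without clone 11. HOX genes went from -0.22 without TK+ clone 1 to 0.12 without clone 11, and were at 0.084 without the wildtype library. Of these 5 lists only the HOX genes changed sign. The smaller medians ranged from -0.10 to -0.020 for heat shock, 0.052 to 0.149 for complex I, 0.0071 to 0.106 for nucleoside and 0.076 to 0.18 for imprinted genes. Among signalling lists the range was -0.15 without clone 7 to 0.014 without clone 4 for WNT targets, -0.12 to -0.062 for NOTCH genes, and -0.024 without clone 11 to 0.23 without clone 6 for the EGF family. It was -0.088 without TK+ clone 2 to 0.097 without TK+ clone 1 for MAPK feedback genes and -0.12 without TK+ clone 1 to 0.075 without the wildtype library for matrix proteases. Mitosis genes had 0.15 without clone 4 and 0.54 without TK+ clone 1, BCL2 family genes 0.046 to 0.16, CDK inhibitors -0.23 to -0.061 and epithelial genes 0.086 to 0.17. For death receptors the range was -0.19 to -0.10, for metallothioneins -0.078 to 0.35, for melanocyte genes -0.023 to 0.37, and for fibroblast and endothelial genes -0.77 to 1.03.

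**Figure D4:**
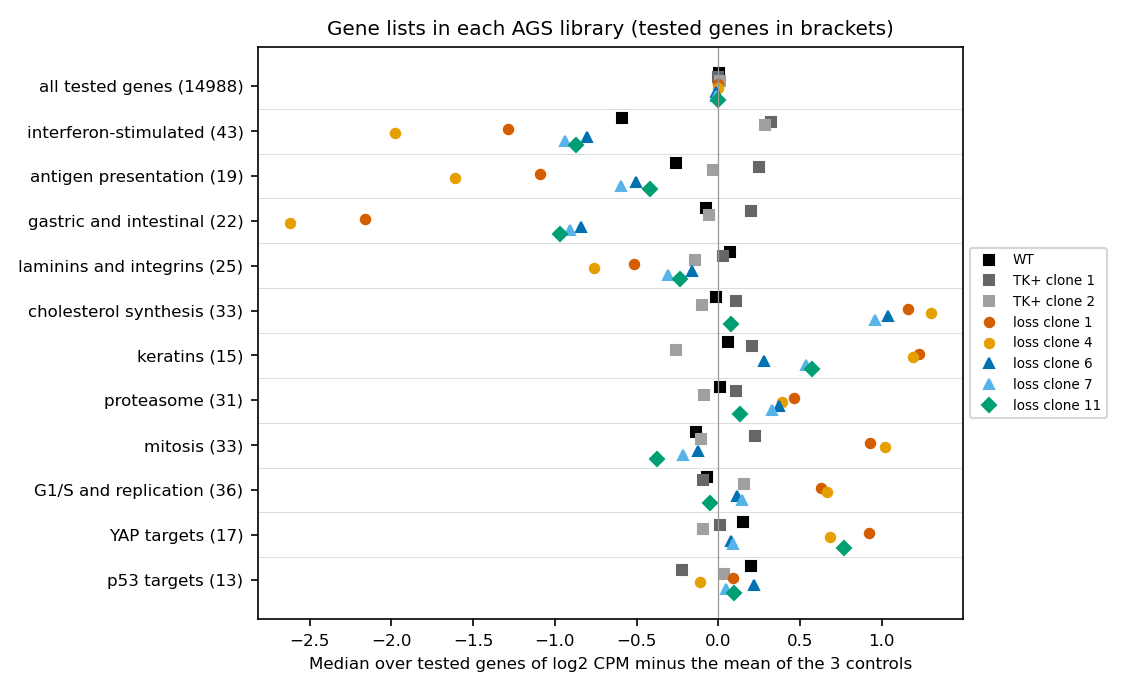
Median over the tested members of each list (rows, number tested in brackets) of log2 CPM minus the mean of the 3 controls (horizontal axis), 1 point per AGS library. All 5 loss clones lie left of the controls for interferon-stimulated and for gastric and intestinal genes, clone 11 lies with the controls for cholesterol synthesis, and clones 1 and 4 stand apart for mitosis.

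Outside 1q the largest rises among protein-coding genes whose groups did not overlap came from low control levels. EDNRB, an endothelin receptor, had 0 counts in the controls and 1.27, 1.20, 1.25, 2.91 and 0.199 CPM in the loss clones, at least 7.76-fold higher in the mean (floor of 3 counts in each control library). GABRA3, a GABA receptor subunit, stood at 0.888, 1.17 and 0.177 CPM and at 99.7, 49.1, 5.29, 5.43 and 13.2 CPM (log2 fold change 5.53, SE 1.30, edgeR adjusted p = 0.036). TCF4, a transcription factor of neural and mesenchymal cells, stood at 4.86, 4.66 and 6.79 CPM and at 51.9, 33, 465, 357 and 47.2 CPM (log2 fold change 5.13, SE 1.11, edgeR adjusted p = 0.0284). The clones differed widely in size for these genes, clones 6 and 7 being highest for TCF4 and clones 1 and 4 for GABRA3. GZMB, NRG1, MMP20, a protease of tooth enamel, B4GALNT4, a glycosyltransferase, MUC16, a mucin, PSG8, a placental glycoprotein whose family is near-identical in sequence, and STPG4 completed the 10, with log2 fold changes of 6.52, 5.32, 5.27, 5.26, 4.97, 4.85 and 4.54. These fitted changes depend on the prior count where control counts were near 0.

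Among the largest falls, besides REG4, PGC and IFI44L, TMEM156, a membrane protein, stood at 7.68, 21.8 and 4.42 CPM in the controls and at 0.121, 0.686, 0.594, 0.265 and 0.864 CPM in the loss clones (log2 fold change -4.46, SE 0.61, edgeR adjusted p = 0.0076). PPARGC1A, a coactivator of mitochondrial genes, stood at 2.92, 7.83 and 4.25 CPM and at 0, 0.114, 0.297, 0.199 and 0.532 CPM (log2 fold change -4.43, SE 0.62, edgeR adjusted p = 0.00764). ROR1, a WNT5A receptor, stood at 31.9, 29 and 24.7 CPM and at 2.66, 2.17, 1.37, 1.06 and 3.26 CPM (log2 fold change -3.76, SE 0.31, edgeR adjusted p = 0.00133). These 3 were called in all 8 fits that leave out 1 library. SSTR1, a somatostatin receptor, FGG, a fibrinogen chain, DMBT1, a mucosal glycoprotein, and PTPN13, a phosphatase, fell with log2 fold changes of -4.24, -4.18, -3.70 and -3.68. PTPN13 stood at 0.303, 0.0572, 0.356, 0.265 and 3.52 CPM in the loss clones, with clone 11 between the others and the controls at 11.7, 11.8 and 10.7 CPM.

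Of the 10 genes with the smallest p-values outside 1q, 9 rose or fell by more than 1 on the log2 scale. UPK2, a bladder surface protein, stood at 5.43, 7.06 and 5.01 CPM in the controls and at 81.7, 74.6, 67.5, 67.7 and 32 CPM in the loss clones (log2 fold change 3.47, SE 0.32, edgeR adjusted p = 0.00231). SYTL2, a vesicle protein, stood at 61.1, 86.1 and 69.4 CPM and at 29.3, 22.5, 27.2, 30.8 and 27.8 CPM (log2 fold change -1.39, SE 0.14, edgeR adjusted p = 0.00341). IRGQ, a GTPase-like protein, stood at 49.6, 51.1 and 50.6 CPM and at 90.3, 96.1, 91.4, 95.6 and 84 CPM (log2 fold change 0.86, SE 0.09, edgeR adjusted p = 0.00351). GNA15, a G protein subunit, CST5, a cystatin, and BX004987.1 rose (2.94, 3.57 and 4.03), and CACNG6, a calcium channel subunit, fell (-1.60), with ROR1, GATA5 and PGC as the remainder. All 10 were called in all 8 fits that leave out 1 library. Other protein-coding genes of that set outside 1q, listed after their values were seen, were the higher APLP1, C6orf15, DUSP14, HPGD, MFSD2A, NOCT, PSTPIP2, TOM1L2 and TRIB1, and the lower ALDH3A1, CLMN, FGF20, NFYA, RALGPS1, SLC9A7, SLFN5, TMC5, TRABD2A and ZNF503. HPGD, which degrades prostaglandins, stood at 154, 144 and 134 CPM in the controls and at 490.2, 520.2, 581, 621 and 293 CPM in the loss clones. SLFN5, a nuclear protein that interferon can induce, stood at 49.8, 78.2 and 46.7 CPM and at 13.6, 18.1, 11.4, 7.88 and 22.3 CPM.

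Some genes were high in some loss clones and near 0 in others, and for some the controls differed as well. Among the 10 protein-coding genes outside 1q with the largest SD of log2 CPM over the 5 clones, at a mean of at least 5 CPM, none of which was called, were VTN, JDP2, PRKX, UGT1A6, GALNT5, KRT75, CEACAM5, SORBS3 and PNPLA4. JDP2, a transcription factor that pairs with JUN, stood at 7.73, 24.5 and 0 CPM in the controls, not detected in TK+ clone 2 (0 counts), and at 26.5, 26.5, 0.0594, 0 and 10.3 CPM in the loss clones. VTN, the matrix protein vitronectin, stood at 614, 1953 and 679.9 CPM in the controls and at 10.1, 0.400, 449.8, 429.6 and 219.9 CPM in the loss clones. CEACAM5, a gut surface antigen, stood at 57, 42.8 and 65.4 CPM and at 1.94, 0.343, 55.5, 69.1 and 20.1 CPM, and SORBS3, a focal adhesion protein, at 54.2, 51.6 and 55 CPM and at 1.82, 0.629, 56.4, 56.5 and 64.2 CPM. In these 3 genes clones 1 and 4 lay far below the other clones. PRKX and PNPLA4, both on the short arm of X, had 1 and 0 counts in clone 6, and 1120 and 182 in clone 7.

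Of the genes with at least 50 counts in every control, 21 had no more than 1 count in some loss clone, a rule set after the data were seen. In 6 of them this held for clones 1 and 4 together, in 4 for clones 6 and 7 together, and in 11 for 1 clone. The 6 were REG4, TFF1, DMBT1, SSTR1, UGT1A6 and MICU3. The 4 were PRSS2, whose sequence is near that of other trypsinogens, and the 1q genes HSD17B7 (chr1:162790702-162812817), GLUL (chr1:182381704-182392206) and PTGS2 (chr1:186671791-186680427), coordinates as the files give them for hg38. GLUL, glutamine synthetase, had 885, 687 and 593 counts in the controls, 0 in clones 6 and 7, which allows up to 0.178 and 0.199 CPM by counting error alone (3 counts), and 550, 347 and 442 in clones 1, 4 and 11. HSD17B7, an enzyme of cholesterol synthesis, had 135, 82 and 94 counts in the controls, 0 in clones 6 and 7, and 137, 117 and 94 in clones 1, 4 and 11. PTGS2, the prostaglandin enzyme COX-2, had 389, 558 and 591 counts in the controls, 1 in each of clones 6 and 7, and 293, 163 and 598 in the others. No other clone was at or under 1 count for any of these 3 genes.

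The response was then set against that of 2 other lines with engineered 1q loss, A2780, an ovarian cancer line with 3 loss clones, and MCF10A, an untransformed breast epithelial line with 4. The controls of A2780 were 2 wildtype and 2 TK+ libraries, while those of MCF10A were 2 wildtype libraries and no TK+ library. Each clone of these lines had 2 libraries, whose counts were added. The response to the loss differed from A2780 in 371 of 16735 genes (2.22%) and from MCF10A in 67 of 17483 (0.383%), by edgeR's test of the interaction of line and loss. With wildtype libraries as the only controls, 1 of them in AGS, the former number was 43. Against A2780 134 were more positive in AGS and 237 more negative, or 36.1% more positive, but 51.7% with RLE size factors in place of TMM, and 39 and 28 against MCF10A, or 58.2% and 44.7%. On their own, 725 of 15083 genes (4.81%) were called in A2780 and 294 of 16704 (1.76%) in MCF10A.

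Interferon-stimulated genes differed in 6 of 28 members tested in AGS and A2780 and in 3 of 38 tested in AGS and MCF10A, each more negative in AGS. Over all genes tested in both lines, 336 of 12168 differed from A2780, 220 of them more negative in AGS. From MCF10A 65 of 13757 differed, 28 of them more negative in AGS. The medians of the interferon list were -1.20 in AGS and 0.25 in A2780 over the 28 members, and -1.12 in AGS and 0.11 in MCF10A over the 38. The MCF10A controls were wildtype only, while those of AGS were mostly TK+ clones. With the wildtype library as the only AGS control, the AGS median over all 43 tested members was -0.497. STAT2 had a log2 fold change of -0.83 in AGS and 0.29 in A2780 (difference -1.16, SE 0.22, edgeR adjusted p = 0.0212). Cholesterol genes differed in 4 of 31 members from A2780, where their median was -0.098, and in 0 of 32 from MCF10A, where it was 0.048. HMGCS1 differed by 2.20 (SE 0.51, edgeR adjusted p = 0.0418) from A2780 and by 2.21 (SE 0.54, adjusted p = 0.084) from MCF10A. BCL2 had log2 fold changes of 2.48 in AGS, -2.92 in A2780 and -0.024 in MCF10A, and differed from both (edgeR adjusted p = 0.0222 and 0.0149).

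Of the 13 p53 targets 10 rose and 0 fell in A2780, where 2.24% of the 12168 genes tested in both lines rose and 2.69% fell. Their median there was 0.61 beside 0.099 in AGS. For 3 of the 13 the difference itself was called, as it was for 336 of the 12168 genes, 220 of them more negative in AGS. CDKN1A had a log2 fold change of -0.25 in AGS and 1.76 in A2780 (difference -2.04, SE 0.42, edgeR adjusted p = 0.0258). ZMAT3, a p53-induced RNA-binding protein, and RPS27L, a ribosomal protein paralog, differed by -1.26 and -0.97. None of the 13 differences from MCF10A was called, and that of CDKN1A was -1.21 (SE 0.38, edgeR adjusted p = 0.137). The 1q genes MDM4 and UCK2 fell in all 3 lines, with differences of -0.23 (SE 0.20) and 0.17 (SE 0.14) from A2780 and 0.015 (SE 0.20) and 0.30 (SE 0.15) from MCF10A, none of which was called. GNA15, B4GALNT4, CRIM1, EIF2AK2, PLSCR1 and EPHB2 differed from both lines in the direction they had in AGS. Each had been called on the same AGS libraries, a selection that favours a difference in that direction. The number of differences was 99 to 955 against A2780 and 14 to 654 against MCF10A with 1 AGS library left out, in each case lowest without TK+ clone 2 and highest without loss clone 11.

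**Figure D5:**
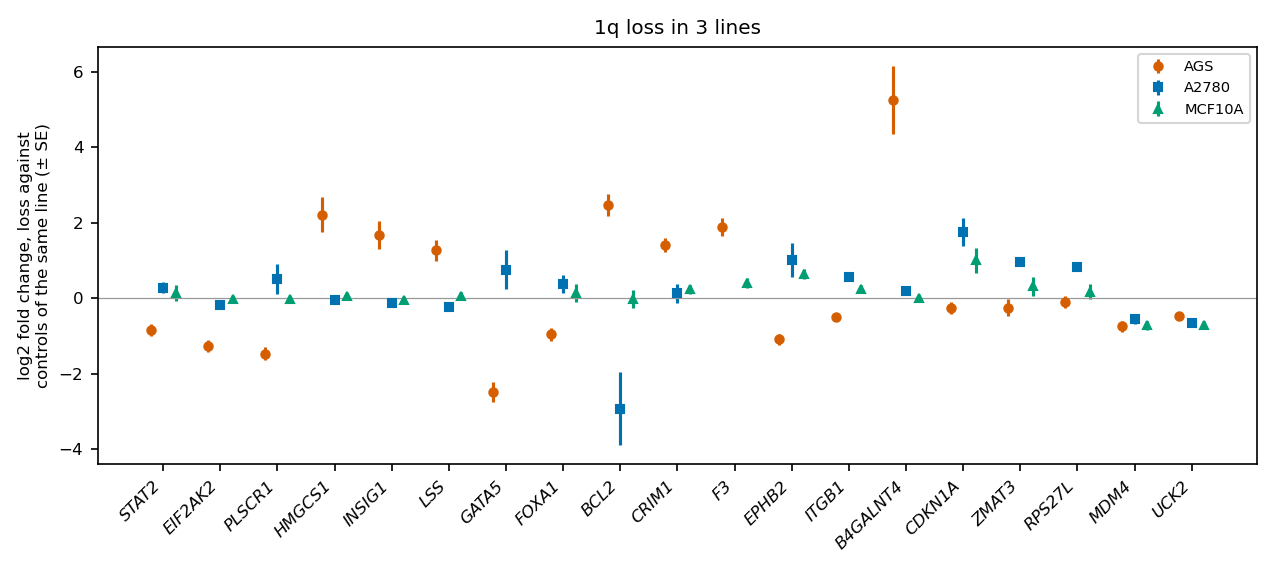
Log2 fold change with its standard error (vertical axis) of named genes (horizontal axis) for 1q loss against the controls of the same line, in AGS (5 clones), A2780 (3) and MCF10A (4). EIF2AK2 and PLSCR1 lie below -1 in AGS and above it in the other lines, MDM4 and UCK2 lie below 0 in all 3 lines, and genes without a point were not tested in that line.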

How the data were processed

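RNA was extracted with RNeasy kits, selected with poly-T beads and primed with random hexamers, per the labels' protocols. The authors deposited raw counts per gene for each library, with reads aligned to hg38 and HISAT2 2.0.5 and featureCounts 1.5.0-p3 named, per the submitters' processing notes. Whether counting used strand is not given in the sources used here. Multigene families and overlapping genes may share reads.

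The 8 AGS libraries (15042068 to 19414614 counts) were fitted with edgeR 4.0.16 (R 4.3.3): filterByExpr (minimum count 10, total 15), TMM scaling, quasi-likelihood F test of loss against all 3 libraries that keep the gain, Benjamini-Hochberg adjustment over all tested genes, called at an adjusted p under 0.05. The script recovered known changes in simulated data. Mitochondrial genes held 5.18 to 7.78% of counts, and 9.15% in loss clone 7. No 2 libraries held identical counts. Log2 CPM for arm and list medians used a prior count of 2. The 1q shift was tested by a two-sided exact permutation test over the 8 libraries. Line differences used the interaction of line and loss, with genes matched by Ensembl ID, 45342 for A2780 and 58735 for MCF10A. Of the former 261 have the same coordinates in both tables, so A2780 appears to have been counted on another annotation or build, and the difference between the lines and between their annotations cannot be told apart.

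Alternatives were DESeq2 1.42.0, limma-voom (limma 3.58.1), RLE size factors, TMM over genes outside 1q, no filter on low counts or one at a mean of 1 CPM, clones 1 and 4 and clones 6 and 7 summed, the wildtype library as the only control, and each library left out. Named genes were every called member of a list with up to 8 of them, otherwise the 8 with the smallest p, up to 2 abundant members without a call, all p53 targets, and outside 1q the 10 protein-coding genes with the largest rise, the largest fall (groups not overlapping, mean of at least 1 CPM) and the smallest p, the 5 largest falls and all rises on 1q, and the 10 genes that varied most among the clones. Some genes that this rule names are not reported here. Other genes named were chosen after their values were seen. The members and the 40 lists were chosen with earlier results of these data known. Promoter and sequence entries are RefSeq's, of GRCh38.p14. The protein sequences were not used here.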

Additional observations from a re-analysis of the deposited data

Results flagged for a closer look

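Among 165 gene values checked over the 5 loss clones, 16 had 1 clone farther from the others than Dixon's 95% limit (0.71 of the range for 5 values). Chance flags about 1 in 20 such groups. Clone 11 was the distant clone for 8 genes, in CPM ATF3 at 320.5, AXIN2 at 199.6, HEY1 at 1.13, INSIG1 at 30.6, MCL1 at 543, MVK at 9.77, PTPN13 at 3.52 and UPK2 at 32. It stood on the side of the controls for HEY1, INSIG1, MVK, UPK2, MCL1 and PTPN13. Clone 4 was the distant clone for 6 genes, with DTX3L at 48.4, IFI35 at 1.37, IFI6 at 52.8, NCSTN at 102, PLSCR1 at 47 and SAMHD1 at 54 CPM. Each of these 6 values was the lowest of the 5 clones. Clone 1 held KRT23 at 162 CPM, and clone 6 PRKX at 0.0594 CPM.

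The response to 1q loss differed between AGS and A2780 for 38 of 164 named genes by edgeR's test of the interaction, with adjusted p under 0.05. Over all genes tested the share was 2.22%. Of the 164, 120 had been called on the same AGS libraries, and this selection itself raises their share. More positive in AGS, with the difference in log2 fold change in brackets, were GZMB (9.26), KRT14 (6.10), BCL2 (5.36), TCF4 (5.23), B4GALNT4 (5.14), TNNT2 (4.26), UPK2 (2.93), GNA15 (2.88), S100A4 (2.58), HMGCS1 (2.20), INSIG1 (1.76), LSS (1.45), CRIM1 (1.25), IRGQ (0.90) and FASN (0.88). More negative in AGS were IFI16 (-6.97), FGG (-6.61), MMP1 (-5.33), PTPN13 (-3.71), IFI35 (-3.40), GATA5 (-3.28), KIF21B (-2.16), EPHB2 (-2.14), CDKN1A (-2.04), PLSCR1 (-2.01), CTH (-1.78), ASNS (-1.70), DNAJB9 (-1.69), SYTL2 (-1.63), SAMHD1 (-1.47), FOXA1 (-1.38), ZMAT3 (-1.26), STAT2 (-1.16), EIF2AK2 (-1.13), ITGB1 (-1.10), RPS27L (-0.97), SEL1L (-0.97) and ATF6 (-0.78). Where a gene was not tested in A2780 on its own, as for GZMB, IFI16, FGG, GNA15 and UPK2, the fitted difference depends on the prior count.

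Between AGS and MCF10A the response differed for 15 of the 164 named genes by the same test, beside 0.383% of all genes tested. The same selection applies. More positive in AGS were B4GALNT4 (5.42), GNA15 (2.79), BCL2 (2.55), DUSP10 (1.92), F3 (1.53), CRIM1 (1.23) and HK1 (1.22). More negative in AGS were TMEM156 (-5.01), ROR1 (-3.72), COL4A1 (-2.77), EPHB2 (-1.68), ITGA2 (-1.56), SP100 (-1.40), PLSCR1 (-1.40) and EIF2AK2 (-1.20).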

How the results depend on the processing

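The 1q shift and the 120 tallied genes among the named genes called kept their direction under every alternative that tested them. The medians of 13 of 40 lists changed sign under some alternative, among them p53 targets (-0.0974 to 0.225), MAPK feedback (-0.088 to 0.154), BCL2 family (-0.0498 to 0.177), HOX (-0.224 to 0.249), cancer-testis (-1.75 to 5.28) and fibroblast and endothelial genes (-0.765 to 1.99). The 1131 calls became 2233 with DESeq2, 138 with the clone sets summed, and 0 with the wildtype library as the only control by edgeR (1681 at an unadjusted p under 0.05), and 97 to 1773 with 1 library left out, lowest without TK+ clone 2 and highest without loss clone 11. Limma-voom gave 1073, and other scalings and filters 1079 to 1285. Of these 120 genes, 119 kept the call with DESeq2, 96 with limma-voom, 32 with the clone sets summed, 34 without the wildtype library, 31 without TK+ clone 1, 26 without TK+ clone 2, and 65 to 117 with 1 loss clone left out. Some called genes named in the text, such as ELOVL6, PINCR, SFN and HPGD, are not among the 120. The 1q shift was -0.549 with the wildtype library as the only control, -0.547 with the clone sets summed and -0.554 to -0.541 with 1 library left out, all designs too small to pass the threshold. Differences from A2780 numbered 953 with the libraries of its clones kept separate, 1303 with DESeq2, 43 with wildtype libraries as the only controls, and 99 to 955 with 1 AGS library left out. Those from MCF10A numbered 368, 150 at a mean CPM of at least 1, 806 with DESeq2, and 14 to 654. The share more positive in AGS against A2780 was 36.1% and became 51.7% with RLE size factors, and 58.2% became 44.7% against MCF10A. The causes were not tested. No paired analysis was possible because the labels number the clones, and the loss and control groups share only the number 1. Depth limits genes near 0 in a group, where 3 counts are 0.157 to 0.199 CPM.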
